A study of Homo sapiens with 2 samples.

Results

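NRF2, the transcription factor encoded by NFE2L2, and the enzymes of glutathione and thioredoxin defense were examined in U87 cells, an established human glioblastoma line, after silencing of the homeobox gene HOXD9. The genes were NFE2L2, KEAP1, NQO1, HMOX1, GCLC, GCLM, TXNRD1, SRXN1 and GPX4, that is 9 of the 19775 genes named by at least 1 probe set. Every probe set annotated to 1 of these genes alone was taken, 18 in all. The cells were transfected with 50 nM of a non-silencing control siRNA or of HOXD9 siRNA-2, a single siRNA duplex, with Lipofectamine RNAiMAX, and total RNA was taken on Day 2. RNA of each condition was hybridized to 1 Affymetrix U133 Plus 2.0 array, so no SD, p-value or test between conditions can be given, and precision is limited by having a single array on each side. The study used the arrays to look for genes involved in the cell death seen after HOXD9 silencing.

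In unstressed cells KEAP1 holds NRF2 for ubiquitination by a CUL3 ligase, and NRF2 is degraded. When oxidants or electrophiles modify KEAP1, NRF2 accumulates, pairs with a small MAF protein and binds antioxidant response elements in the genes of detoxifying enzymes. The activity of NRF2 is set largely at the level of its protein, which these arrays do not measure. Glutathione and the enzymes that use it also contain lipid peroxides in membranes.

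Values are the deposited linear signals. Each ratio is HOXD9 siRNA-2 over control siRNA on the log2 scale, and a gene was called lower or higher past a 2-fold difference. The study's own text applied the same threshold. Of 54613 probe sets, 27307 passed a filter on mean signal (19.8, the median of all), and each of 11624 genes took the ratio of its brightest such probe set. The median log2 ratio of these genes was -0.25, so a typical gene read lower on the HOXD9 siRNA array. Centering both arrays on their medians adds 0.30 to every ratio and puts the median of these genes at 0.05. For this reason ratios are given beside those of all genes. The spread among probe sets that read 1 gene was 0.41 as an SD pooled over 6081 genes. For the brightest probe sets it was 0.18 over 1822 genes. These probe sets read the same RNA on the same arrays, so the spread holds no variation between cultures, transfections or arrays. It cannot stand in for replicate error. RNA of a whole culture was measured, and fewer cells of a kind cannot be told apart from less RNA per cell. The signal of HOXD9 itself was 19.7 (control siRNA) and 5.58 (HOXD9 siRNA-2) on 1 probe set, and 9.33 and 11.4 on the other. Probe sets for Bacillus subtilis control transcripts, used as a measure of background, reached 18.4. The first HOXD9 probe set therefore bounds the loss only at 1.07-fold or more as deposited, and no loss could be bounded after centering. The arrays thus lack the signal to give the size of the loss. The study measured HOXD9 separately, by quantitative RT-PCR on the same day after transfection, and presents its siRNAs as reducing HOXD9 expression. Of markers of the line, VIM, CD44, FN1 and CHI3L1 were bright on both arrays, from 4197 for CHI3L1 to 11349 for VIM on their brightest probe sets. NES was dimmer, at 116 and 70.6, and all 3 GFAP probe sets lay within the background. CDKN2A, which is deleted in this line, lay within it on 2 of 3 probe sets and gave 26.9 and 19.5 on the other. The leukocyte marker PTPRC and the neuronal marker RBFOX3 also lay within it on every probe set, and EPCAM, PECAM1 and MOG did not exceed 43.4.

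None of the 9 genes differed by more than 2-fold between the arrays on its brightest probe set. By that measure 4.95% of the 11624 genes were lower as deposited, and 0.516% were higher. After centering these shares were 2.31% and 1.17%. The 9 ratios ran from -0.71 for NFE2L2 to 0.38 for HMOX1. Their median was -0.24 (0.06 after centering), against -0.25 for all genes (0.05 after centering), with 4 of the 9 below the median of all genes and 5 above it. All 9 were among the 3875 brightest genes, whose median was -0.20. At the level of probe sets 15 of the 18 passed the filter, and past 2-fold 0 of these lay lower and 0 higher, where the shares among all 27307 were 6.69% lower and 0.615% higher.

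**Figure D1:**
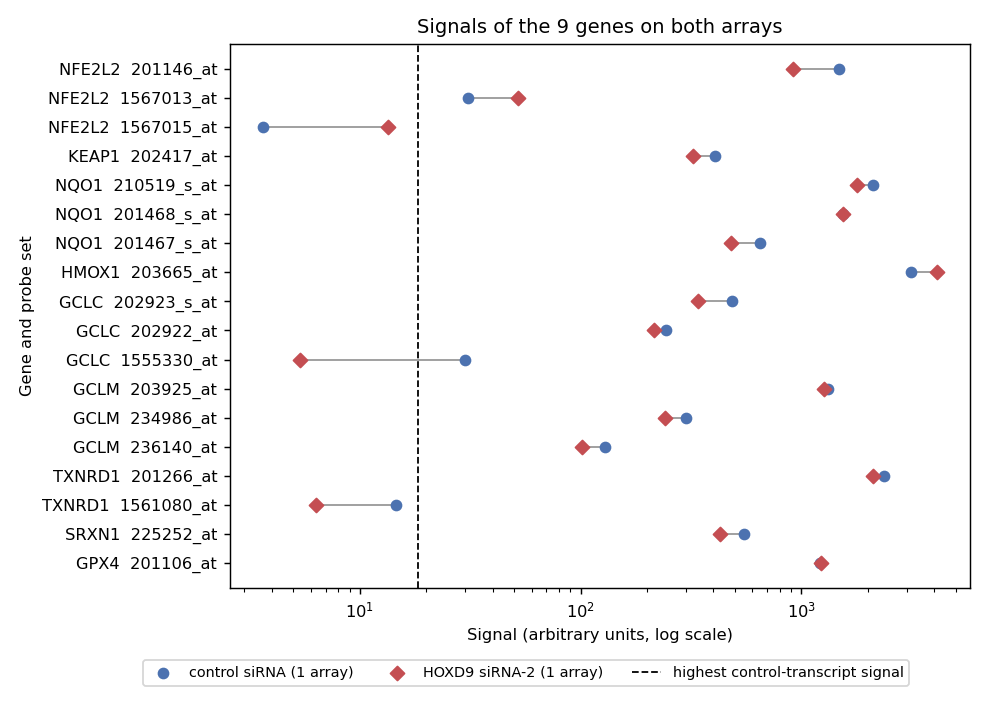
Signal of each of the 18 probe sets (y axis, gene and probe set) on the control siRNA array (blue circles) and the HOXD9 siRNA-2 array (red diamonds), on a log axis in arbitrary units, with 1 array per condition. The dashed line marks 18.4, the highest signal of the control transcripts. The HOXD9 siRNA-2 signal lies to the right of the control for HMOX1 and to the left for the brightest NFE2L2 probe set, and 1 NFE2L2, 1 GCLC and 1 TXNRD1 probe set have signals left of the dashed line.

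NFE2L2 (chr2:177230303-177264727, GRCh38.p14) had the lowest ratio of the 9 genes. On its brightest probe set the control siRNA signal was 1489 and the HOXD9 siRNA-2 signal 913, or 61.3% of the control. The log2 ratio of -0.71 stood 0.45 below the median of all genes, and 12.3% of all genes, or 4.75% of the 3875 brightest, read lower still. After centering it was -0.41. A dimmer NFE2L2 probe set went the other way, from 30.8 to 52.1, a log2 ratio of 0.76, which passed 2-fold after centering, quantile normalization (1.09) and loess (1.09). The dimmest gave 3.66 and 13.4, both within the background, and no fold is given. A probe set shared with the kinase gene CSNK2A1 gave 106 and 81.2 and was not counted. The NFE2L2 probe sets therefore did not give 1 direction, and the mean of the 2 above the filter was 0.03.

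KEAP1 (chr19:10486125-10503356), the inhibitor of NRF2, was read by 1 probe set. Its control signal was 409 and its signal after HOXD9 silencing 324, a log2 ratio of -0.34. This was 0.08 below the median of all genes, and 39.4% of genes read lower. On the brightest probe sets NFE2L2 stood farther below the median of all genes than KEAP1 did. As the NFE2L2 probe sets disagreed, no ranking of these genes is drawn.

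**Figure D2:**
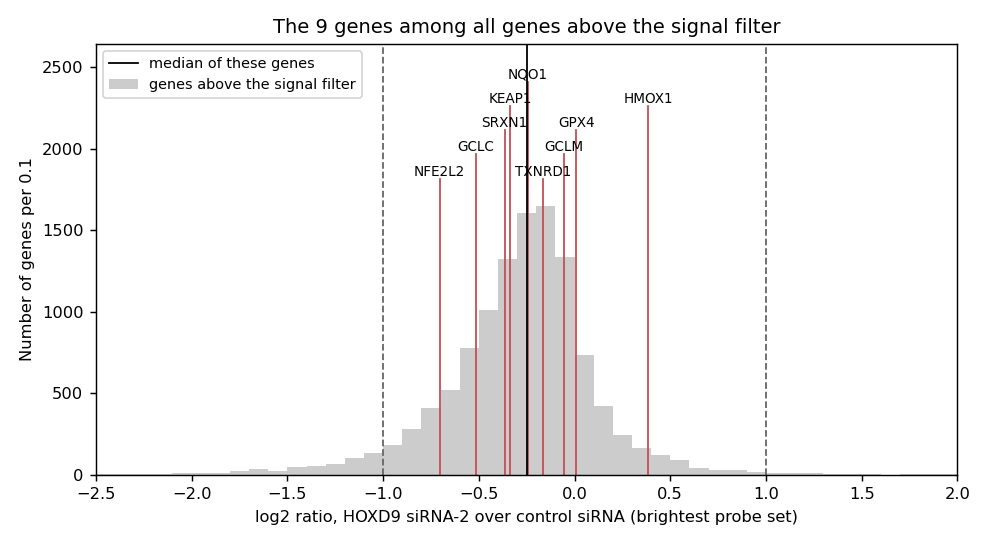
Distribution of the log2 ratio (x axis, HOXD9 siRNA-2 to control) of the 11624 genes above the signal filter (gray bars, number of genes per 0.1 on the y axis). Red lines mark the 9 genes, the black line the median of -0.25 and dashed lines 2-fold. NFE2L2 lies on the lower flank and HMOX1 in the upper tail, and the other genes lie between them.

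HMOX1 (chr22:35381096-35394207) had the highest ratio. It encodes heme oxygenase-1, which breaks heme down to biliverdin, iron and carbon monoxide, and it is induced by many kinds of stress. Its only probe set had a control signal of 3152 and, after HOXD9 silencing, a signal of 4112, or 130% of the control. The log2 ratio of 0.38 stood 0.63 above the median of all genes. Of all genes 96.5% read lower, and of the 3875 brightest 99.7%. Under the other scalings the ratio was 0.68 (centering), 0.55 (quantile) and 0.54 (loess), so HMOX1 read higher on the HOXD9 siRNA array under each of these, and past 2-fold under none. With 1 probe set its spread could not be measured.

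NQO1 (chr16:69709401-69726560) encodes a quinone reductase that is widely used as a readout of NRF2. Its 3 probe sets gave signals of 2108 and 1779, 1542 and 1548, and 650 and 480, with control siRNA and HOXD9 siRNA-2 respectively. Their log2 ratios were -0.24, 0.00 and -0.44. The brightest lay at the median of all genes, 0.01 above it, and the range over the 3, 0.44, was wider than that distance. All 3 carry the suffix _s_at, which marks probe sets that can match more than 1 transcript.

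GCLC (chr6:53497341-53545101) and GCLM (chr1:93885199-93909430) encode the catalytic and the modifier subunit of glutamate-cysteine ligase, the rate-limiting enzyme of glutathione synthesis. GCLC gave 486 and 340 on its brightest probe set, a log2 ratio of -0.52, and 244 and 216 on another, a log2 ratio of -0.18. Its dimmest probe set, below the filter, read 5.36 after HOXD9 silencing, 17.8% of the control signal. As 5.36 lay within the background, GCLC was at least 1.63-fold lower on it, or 1.33-fold after centering. The 3 GCLM probe sets gave 1316 and 1267, 300.2 and 242, and 129 and 102, with log2 ratios of -0.05, -0.31 and -0.34. On the brightest probe sets 22.1% of all genes read lower than GCLC and 77.6% read lower than GCLM. The dimmer GCLM probe sets lay between the 2 GCLC probe sets above the filter, so the order of the subunits was not the same on all probe sets.

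TXNRD1 (chr12:104215779-104350307), the cytosolic thioredoxin reductase, gave signals of 2374 and 2119, a log2 ratio of -0.16. Its other probe set gave 14.5 and 6.36, within the background on both arrays. SRXN1 (chr20:646615-653200) encodes sulfiredoxin, which restores overoxidized peroxiredoxins, and gave 549 and 426, a log2 ratio of -0.36. GPX4 (chr19:1103994-1106779) encodes the selenoenzyme that reduces lipid hydroperoxides in membranes and restrains ferroptosis. It gave 1221 and 1229, a log2 ratio of 0.01. TXNRD1 stood 0.09 above the median of all genes, SRXN1 0.11 below it and GPX4 0.26 above it. SRXN1 and GPX4 each rested on 1 probe set and TXNRD1 on 1 above the filter.

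**Figure D3:**
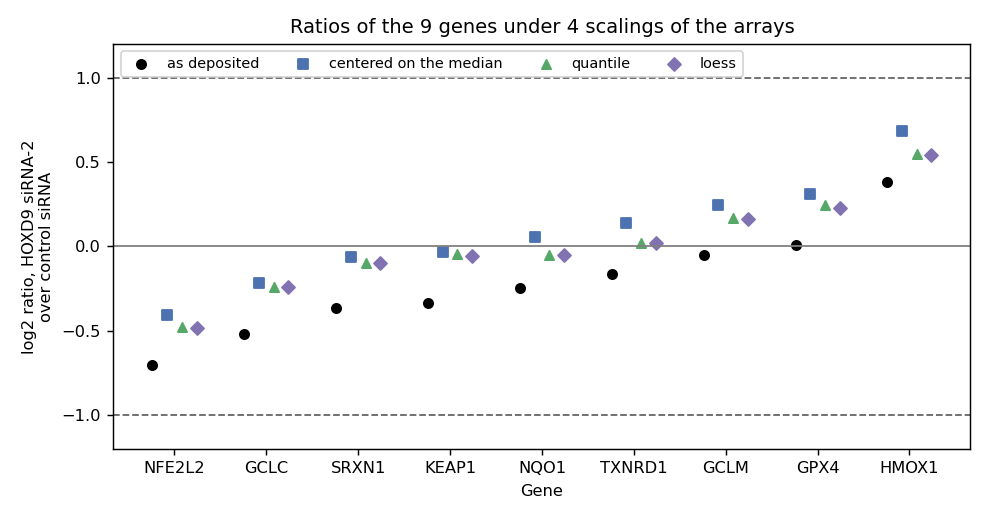
On the y axis is the log2 ratio of HOXD9 siRNA-2 to control siRNA for the brightest probe set of each of the 9 genes (x axis, ordered by ratio) with the signals as deposited (circles), centered on the median (squares), after quantile normalization (triangles) and after removal of a loess trend (diamonds). Dashed lines mark 2-fold. NFE2L2, GCLC, SRXN1 and KEAP1 lie below 0 and HMOX1 and GPX4 above it under all 4, while NQO1, TXNRD1 and GCLM change sign, and no point passes 2-fold.

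For NQO1, TXNRD1 and GCLM the sign of the ratio depended on the scaling. As deposited they were -0.24, -0.16 and -0.05, and after centering 0.06, 0.14 and 0.25. With quantile normalization NQO1 stood at -0.05, TXNRD1 at 0.02 and GCLM at 0.17. No direction can therefore be given for these 3 genes without a choice of scaling. GPX4 stayed above 0, from 0.01 as deposited to 0.31 after centering. KEAP1 and SRXN1 stayed below 0, from -0.34 and -0.36 as deposited to -0.03 and -0.06 after centering. GPX4, KEAP1 and SRXN1 thus came close to 0 under some scalings, and their sign is not read as a direction either.

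The promoters are shown because the antioxidant response element is the sequence through which NRF2 reaches its targets. Windows of 300 bases around annotated starts, 250 of them upstream, were taken from RefSeq (GRCh38.p14) for 8 of the 9 genes, all but HMOX1. They were searched on both strands for the core TGACNNNGC, whose first 4 bases also occur in sites of AP-1 and CREB. Of 13 windows 4 held it, from GCLM, TXNRD1 and KEAP1, against 13.3% of all 35116 windows. Some genes have several windows. Counted by gene, 3 of 8 held it, against 19.8% of the 9519 genes above the filter that have a window. In the 250 bases upstream of the GCLM start (chr1:93909431-93909680, minus strand), the match, in capitals, is read on the opposite strand:
GCLM upstream region: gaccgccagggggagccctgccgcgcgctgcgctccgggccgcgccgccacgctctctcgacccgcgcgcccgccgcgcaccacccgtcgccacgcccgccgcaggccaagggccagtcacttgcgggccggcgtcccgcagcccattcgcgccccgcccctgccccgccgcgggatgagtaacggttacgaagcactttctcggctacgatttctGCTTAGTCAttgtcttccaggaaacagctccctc

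Each match is given with 10 flanking bases on either side, on the strand on which the core reads forward, with the core in capitals, so that the cores can be compared. The first line is chr1:93909446-93909474 on the plus strand. The TXNRD1 lines are chr12:104215670-104215698 (plus), chr12:104215761-104215789 (minus) and chr12:104286920-104286948 (minus), and the KEAP1 lines chr19:10502784-10502812 (plus) and chr19:10502807-10502835 (minus).
GCLM: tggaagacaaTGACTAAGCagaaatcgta
TXNRD1, site 1: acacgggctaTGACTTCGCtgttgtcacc
TXNRD1, site 2: ctgtgggaacTGACGGAGCcgaaggacgc
TXNRD1, site 3: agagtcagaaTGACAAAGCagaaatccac
KEAP1, site 1: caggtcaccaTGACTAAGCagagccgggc
KEAP1, site 2: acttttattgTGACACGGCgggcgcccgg

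GCLM and the first KEAP1 site have the same 9 bases in the core. The log2 ratios of the 3 genes were -0.05, -0.16 and -0.34, with a median of -0.16, and the median of the 5 genes without a match in the window was -0.36. Over all 9519 genes above the filter that have a window, the median was -0.24 for the 1889 with the core and -0.25 for the rest, so the medians nearly coincided. A match is a description of these letters and not of binding, and a window without one says nothing of elements farther away, such as the known upstream element of NQO1.

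**Figure D4:**
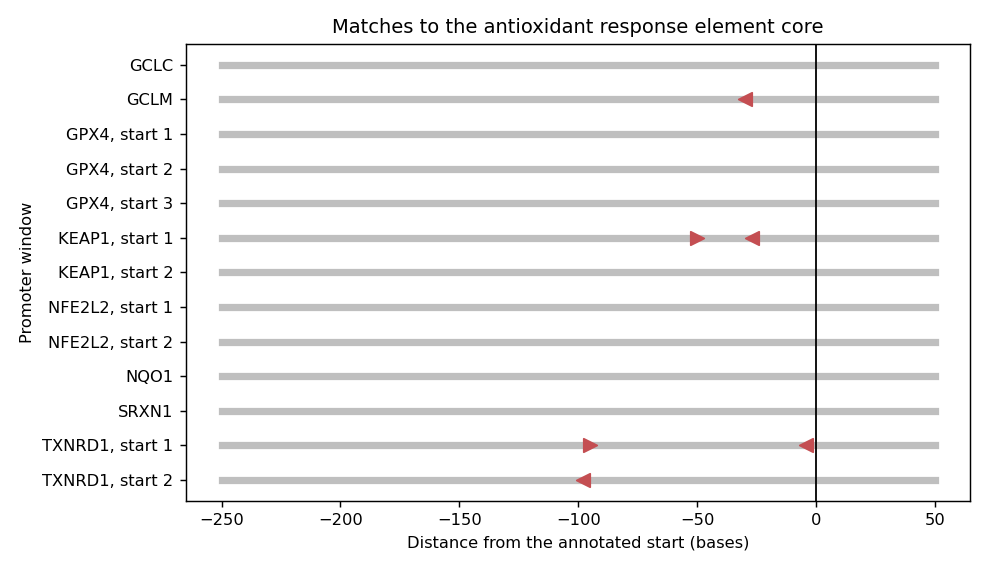
Position of the core TGACNNNGC (x axis, bases from the annotated start at 0) in the 13 promoter windows of 8 genes (y axis), where starts of 1 gene are numbered by coordinate. Triangles pointing right mark the strand of the gene and those pointing left the opposite strand. All 6 matches lie within 102 bases upstream of a start.

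A further 141 genes of oxidant defense were set beside the 9 genes, by role. Of these, 8 had no probe set of their own, and 114 passed the filter. Lower by more than 2-fold were 4 of the 114, IDH2, ALDH1L2, ABCC3 and ACSL4, and higher were 0, where 4.95% of all genes were lower and 0.516% higher. The share of the list was thus not above that of all genes. The median of the 114 ratios was -0.19 (0.11 after centering), with 48 genes below the median of all genes and 66 above it. Many of the 114 were among the 3875 brightest genes, whose median was -0.20 against -0.25 for all genes, so their median was close to that of bright genes. After centering 1 of the 4, ACSL4, was still past 2-fold, but not when the probe sets of each gene were averaged (-0.97 for ACSL4).

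Among partners and regulators of NRF2, none of 8 genes passed 2-fold and the median was -0.12. BACH1, a repressor that competes with NRF2 at HMOX1, had the lowest ratio, -0.68, with signals of 132 and 82.1. It gave -0.16 on its other probe set above the filter. NFE2L1, which encodes the related factor NRF1, had the highest, 0.27, but its other 2 probe sets gave -0.25 and -0.35. The other 6 genes of the role, outside the rule for named genes and added after their values were seen, are all given. MAFG and MAFF encode small MAF partners of NRF2 and did not lie together. MAFG gave 156 and 102, a log2 ratio of -0.62, and MAFF 365 and 422, a log2 ratio of 0.21, with 0.19 on its second probe set. SQSTM1 encodes p62, which draws KEAP1 into autophagy, and its brightest probe set gave 3039 and 1980, a log2 ratio of -0.62, with -0.67, -0.13 and -0.42 on 3 others. CUL3 and RBX1, of the ligase that KEAP1 recruits, stood at -0.22 (0.24 on a dimmer CUL3 probe set) and -0.02, and DPP3, which binds KEAP1, at 0.13. Of the 8 genes 5 lay above the median of all genes and 3 below it.

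Glutathione synthesis and cystine supply had the lowest median of the 9 roles, -0.32, with 6 of 8 genes below the median of all genes and none past 2-fold. SLC7A11, the cystine transporter that feeds glutathione synthesis, had the lowest ratio. Its 3 probe sets gave signals of 357 and 213, 339 and 192, and 49.9 and 37.8, with log2 ratios of -0.75, -0.82 and -0.40. All 3 were below the median of all genes, and after centering they stood at -0.45, -0.52 and -0.10. CHAC1, which degrades glutathione, had the highest ratio of the role, -0.11, from 28.9 and 26.6.

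Of 21 genes that use glutathione, none passed 2-fold, and the median was -0.15. GSR, the reductase that regenerates glutathione, had the lowest ratio, with signals of 409 and 223 on one probe set and 284 and 184 on the other. The log2 ratios of -0.88 and -0.63 were both below the median of all genes. HAGH, a hydrolase of the glyoxalase system, had the highest, 0.42, from 131 and 175.

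Thioredoxin and peroxiredoxin genes had the highest median of the roles, -0.10, with 12 of 15 genes above the median of all genes. SESN1 had the highest ratio, 0.14. TXNIP, which binds and inhibits thioredoxin, had the lowest, -0.67, and its 3 probe sets ranged from -0.68 to -0.51. MSRB3, a methionine sulfoxide reductase named here after its values were seen, was the gene whose probe sets disagreed most. Its brightest gave 172 and 180, a log2 ratio of 0.07, whereas the other 4 were all lower by more than 2-fold in measured ratio, down to one from 40.9 to 4.21 that was at least 2.22-fold lower. After centering these 4 stood at -0.78, -0.87, -1.41 and, for the last, a bound of 1.80-fold. Of 6 genes that remove superoxide and peroxide, SOD2 had the lowest ratio, -0.51, and CAT, the catalase gene, the highest, 0.01. Probe sets above the filter that SOD2 shares with SOD2-OT1 gave -0.39, -0.45 and -1.01 (-0.71 after centering for the last). They were not counted.

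NADPH keeps both glutathione and thioredoxin reduced, and 2 of 10 genes of its supply were lower by more than 2-fold as deposited (4.95% of all genes) and 0 after centering (2.31% of all genes). IDH2, the mitochondrial isocitrate dehydrogenase, gave 238 and 105, a log2 ratio of -1.18. The dimmer IDH2 probe set, from 47.1 to 13.6, bounds the difference at 2.56-fold or more (2.08-fold after centering, when the brighter one stood at -0.88). ALDH1L2, a mitochondrial folate enzyme that makes NADPH, gave 55.2 and 26.8, a log2 ratio of -1.04 (-0.74 after centering). Its other 2 probe sets lay within the background. NNT, the mitochondrial transhydrogenase, named after its values were seen, had log2 ratios of -0.89, -0.61 and -1.46 on 3 probe sets, while one below the filter read at least 1.29-fold higher. By contrast, genes of the cytosolic pentose phosphate pathway were near 0, with TKT at 0.08, the highest of the role, TALDO1 at -0.01, PGLS at -0.05 and PGD at -0.16, although a dim TKT probe set gave -1.02. This contrast was noticed in the values and was not tested. Cytosolic IDH1, at -0.64, and mitochondrial MTHFD2, at -0.29, did not follow it.

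**Figure D5:**
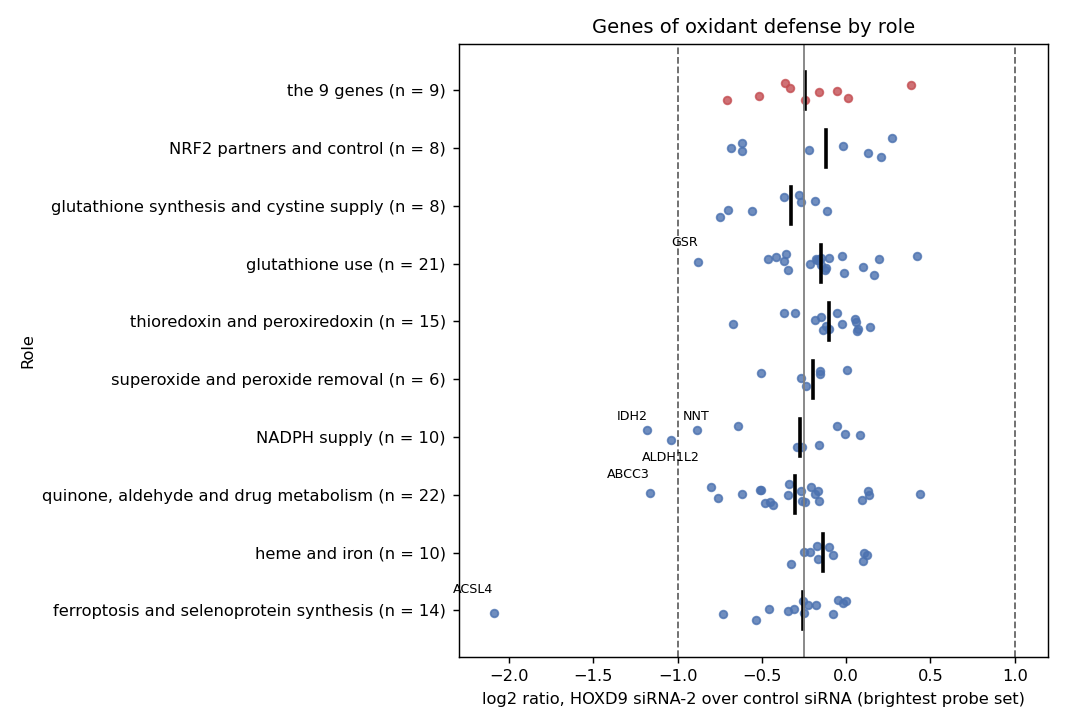
Log2 ratio of HOXD9 siRNA-2 to control siRNA on the brightest probe set (x axis) of the 9 genes (red) and of 114 further genes of oxidant defense by role (blue; y axis, with the number of genes above the filter). Each point is 1 gene, black bars are medians, the gray line is the median of all genes, -0.25, and dashed lines mark 2-fold. ACSL4, IDH2, ABCC3 and ALDH1L2 lie beyond the lower dashed line and no gene beyond the upper one.

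Of 22 genes of quinone, aldehyde and drug metabolism, ABCC3 was lower by more than 2-fold. This drug exporter gave 135 and 60.1 on its brightest probe set, a log2 ratio of -1.16, but -0.14, -0.40 and 0.14 on its other 3 above the filter. OSGIN1, an NRF2-responsive growth inhibitor, had the highest ratio of the 114 genes, 0.44, from dim signals of 33.3 and 45.2. On their brightest probe sets, genes of heme and iron ran from -0.33 for FECH, which inserts iron into heme, to 0.12 for the heme transporter SLC48A1. None of 10 passed 2-fold on these. Dimmer probe sets spread more widely, and 1 of FECH gave -0.83. For SLC11A2 the dimmest above the filter gave 86.3 and 35.4, a log2 ratio of -1.29 (-0.99 after centering). Its others above the filter gave -0.08, -0.18 and -0.31. HMOX1 at 0.38 was thus above every one of these 10.

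ACSL4 had the lowest ratio of the list. It encodes the acyl-CoA synthetase that loads polyunsaturated fatty acids into membrane lipids, the substrate of the peroxidation that GPX4 counters. Its brightest probe set gave 391 and 91.7, a log2 ratio of -2.09, and 0.456% of all genes read lower. The other 2 ACSL4 probe sets gave 50.1 and 27.3, a log2 ratio of -0.88, and 46.5 and 48.5, a log2 ratio of 0.06, so the large difference rested on 1 of 3. The 14 genes of ferroptosis and selenoprotein synthesis had a median of -0.26, and EEFSEC, a selenocysteine elongation factor, had the highest ratio, 0.00.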

How the data were processed

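U87 cells transfected with control siRNA or HOXD9 siRNA-2 were measured on 1 Affymetrix U133 Plus 2.0 array each. The authors deposited a linear intensity for every probe set and array. Per the labels GCOS was used, and the study's methods name GeneSpring; how the signals were scaled is not given in the sources used here, nor are detection calls. The median signal was 22.5 and 18.3, so the scales of the arrays differed.

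Without the 62 control probe sets, 41091 had 1 gene, 1801 several and 11721 none listed. Symbols were matched by Entrez number to RefSeq (GRCh38.p14) for 41037. Log2 ratios, the signal filter (50th percentile) and the 2-fold threshold were applied to all. Background was the highest of 27 Bacillus subtilis probe sets, 11.4 and 18.4, and 18.4 was used for both arrays. A dimmer signal within it gives a bound. The 9 genes and the lists were chosen with earlier results of these data known. Named are the 9 genes, list genes past 2-fold, and the highest and lowest of each role. Alternatives were centering, quantile normalization, loess (fraction 0.3), no or a stricter filter (70th percentile, 75.7), a floor (20th percentile), probe set choice and the background bound. The procedure was tested on simulated data. Python 3.11.15, numpy 2.4.6, pandas 2.3.3, statsmodels 0.14.6 and matplotlib 3.10.9 were used.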

Additional observations from a re-analysis of the deposited data

How the results depend on the processing

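The count of the 9 genes past 2-fold was 0 in each direction under all 9 alternatives. In the list of 114 genes, 4 were lower as deposited, and 1 (ACSL4) under centering, quantile normalization and loess. With the probe sets of each gene averaged, 3 were lower (IDH2 at -1.49, MSRB3 at -1.44 and ALDH1L2 at -1.04), while ACSL4 (-0.97) and ABCC3 (-0.39) were not. Without the signal filter, which admits list genes beyond the 114, including genes within the background, 14 were lower and 3 higher. The stricter filter left 3 lower and 0 higher. Shares of all genes past 2-fold are given only as deposited and after centering. Whether the counts under the other settings are unusual therefore cannot be judged. Of 80 recomputed ratios of single genes, 79 moved by less than 0.41, the SD among probe sets of 1 gene. The other was NFE2L2, at 0.03 when its probe sets were averaged. Centering could not pass this limit, since it adds 0.30 to every ratio. The other filters, the floor and the background bound left all 9 ratios unchanged. Among the brightest probe sets the SD was 0.18, and neither SD holds variation between cultures, transfections or arrays. The count is therefore no measure of stability. NQO1 gave no value without _x_at and _s_at probe sets. Signal over background limits HOXD9 and the dimmest GCLC, NFE2L2 and TXNRD1 probe sets. No paired analysis was possible because each condition has 1 array.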
